A study of Rattus norvegicus with 6 samples.

Results

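The 7 subunits of respiratory complex I that are encoded in mitochondrial DNA were followed in the superficial superior colliculus of the rat, the part of this midbrain structure that the retina innervates. They make up 7 of the 26402 Ensembl gene IDs in the FPKM table (fragments scaled by transcript length and library size). The tables carry no gene symbols, so the genes were found by ID, and all 7 were present. The heavy-strand genes are Mt-nd1 (ENSRNOG00000030644), Mt-nd2 (ENSRNOG00000031033), Mt-nd3 (ENSRNOG00000033615), Mt-nd4 (ENSRNOG00000029707), Mt-nd4l (ENSRNOG00000031053) and Mt-nd5 (ENSRNOG00000029971), and the light-strand gene is Mt-nd6 (ENSRNOG00000029042). The family was chosen by its place in the mitochondrial genome and selected on the measured difference between closed and open eyes in both deposited tables, in particular that of Mt-nd6. Differences between closed and open eyes are therefore a description: a fit across all IDs gives their errors and counts of calls beside all IDs, and nothing is read from those counts.

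All 6 libraries came from Sprague Dawley rats at postnatal day 20. In the closed group, 3 libraries, glue had held the eyelids shut from postnatal day 14 to 20. In the open group, also 3 libraries, the eyes were open throughout that period. Closed and open libraries carry the batch letters A, B and C, 1 of each per group, and polyadenylated RNA was read out. The number of animals per library and what separates the batches are not stated in the labels, so p-values measure only the spread between these samples, which may be technical. Without symbols for the other IDs, the tissue was not checked against its defining cell type markers.

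Complex I takes electrons from NADH, passes them to ubiquinone and pumps protons across the inner mitochondrial membrane, and neurons depend on it for much of their ATP. Its mitochondrial-encoded subunits lie in the membrane arm. Mt-nd2, Mt-nd4 and Mt-nd5 are the antiporter-like subunits of the proton pumping machinery. Mt-nd1 forms much of the ubiquinone site together with subunits encoded in the nucleus, and Mt-nd3, Mt-nd4l and Mt-nd6 are small membrane subunits that sit near it. Mitochondrial DNA is read into long precursors from each strand, which are then cut into separate messengers. Mt-nd6 is the only protein gene read from the light strand, and the other 6 members belong to the heavy strand. Heavy-strand messengers carry short poly(A) tails, whereas the Mt-nd6 messenger is known to lack one or to carry hardly any.

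The FPKM of all IDs summed to between 331008 and 398847 in a library, with both batch C libraries lowest. Taking the 12351 IDs that averaged 1 FPKM or more, the median was 8.03 and 7.88 in closed and open C, and 8.96 to 9.39 in the other 4 libraries. All 7 members were far above that filter in every library. FPKM values hold no read totals, so depth is unknown. The sources used here do not say whether reads were counted by strand. Without strand, reads of Mt-nd6 and of RNA copied from the opposite strand cannot be told apart, and copies of mitochondrial DNA in the nuclear genome can share reads with every member.

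By FPKM, the 7 messengers were among the most abundant in the tissue. They ranked between place 6 and place 14 of 26402 IDs by mean FPKM, and the next ID below them stood at 1934 FPKM. By the mean normalized level in the authors' deposited table, they ranked between place 5 and place 152. Their combined share of summed FPKM averaged 8.70% ± 0.68 with closed eyes and 8.16% ± 0.85 with open eyes (SD, n = 3 per group). The share was 9.20%, 7.92% and 8.98% in closed A, B and C and 7.62%, 7.71% and 9.14% in open A, B and C, so the groups overlapped. Paired by batch, closed was above open by most in A, by less in B, and below it in C. The difference of 0.54 percentage points between group means was 0.27 without open A, 0.29 without closed A and 0.32 without open B. It was 0.93 without closed B and 1.03 without open C. Leaving out 1 library breaks the pairing of its batch, so these values also carry differences between batches. With the 10 most abundant other IDs left out of the total, the difference between group means was 0.91. A different number of mitochondria-rich cells and a different amount of these RNAs per cell cannot be told apart in such bulk tissue.

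Closed A held the largest amount of the 7 messengers. Their summed FPKM was 36691 there, against 30652 in closed B, 29884 in closed C and 29719 to 30259 in the open libraries. By summed FPKM the remaining 5 libraries thus lay close to each other. As shares of all FPKM they spread from 7.62% in open A to 9.14% in open C, beside 9.20% in closed A. Every difference in batch A given below involves closed A.

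**Figure D1:**
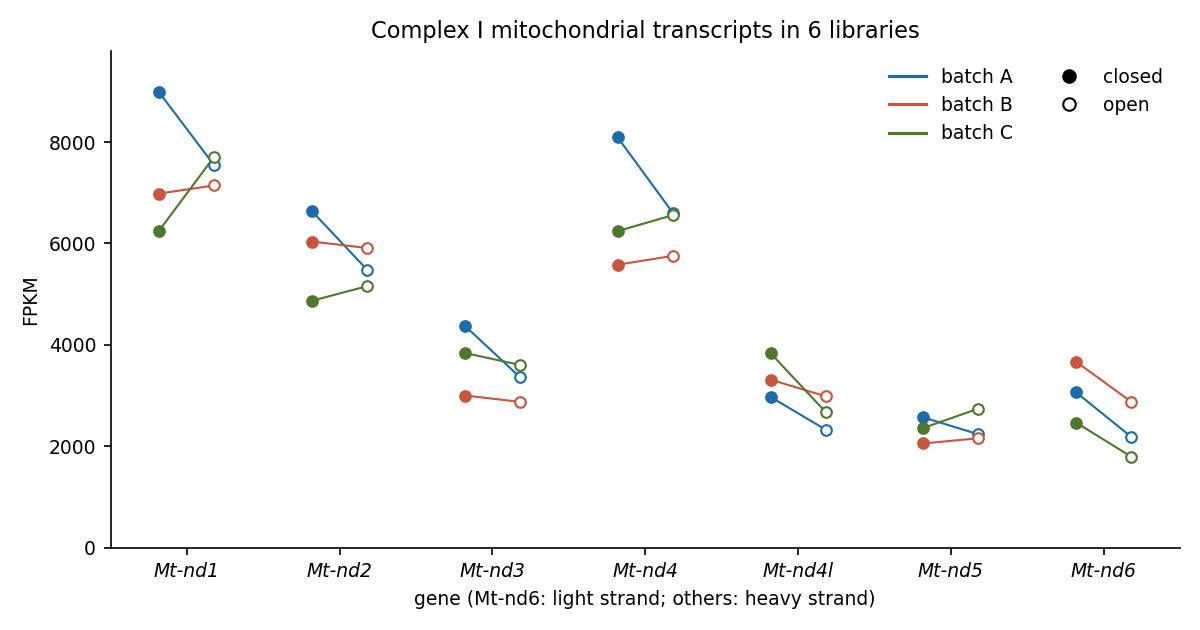
FPKM of each gene (y axis, linear from 0) in every library, with closed eyes as filled and open eyes as open circles, lines joining the libraries of a batch and colours marking batches. Mt-nd1, Mt-nd2 and Mt-nd4 form the upper level, and the 3 lines of Mt-nd6 all run downward from closed to open.

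The members fell into an upper and a lower level. Mt-nd1 led at a mean of 7436 ± 910 FPKM, followed by Mt-nd4 at 6473 ± 895 and Mt-nd2 at 5683 ± 641 (SD, n = 6 libraries). Mt-nd3 at 3512 ± 556, Mt-nd4l at 3022 ± 520, Mt-nd6 at 2678 ± 668 and Mt-nd5 at 2356 ± 260 formed the lower level. Mt-nd1 exceeded Mt-nd4 in 6 of 6 libraries, although the ranges of both genes overlapped. Mt-nd4 exceeded Mt-nd2 in 4 libraries, the exceptions being both libraries of batch B. The step from Mt-nd2 to Mt-nd3, a ratio of means of 1.62, was the only one between neighbours without overlap of the ranges. Below it, each gene exceeded the next in 4 of 6 libraries, so the order within the lower level was not fixed. Mt-nd6 varied most, with a coefficient of variation of 24.9%, against 11.0% to 17.2% for the heavy-strand genes.

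The antiporter-like subunits differed between closed and open eyes in no steady direction. Mt-nd2 stood at 6634, 6039 and 4871 FPKM in closed A, B and C and at 5484, 5911 and 5159 FPKM in open A, B and C. Closed was above open in A and B and below it in C, with log2(FPKM + 0.5) differences of 0.27, 0.031 and -0.083. Mt-nd4 read 8091, 5582 and 6245 FPKM in closed and 6608, 5756 and 6558 FPKM in open libraries of the same batches. Only batch A was higher in closed eyes for Mt-nd4, by 0.29, while B and C differed by -0.044 and -0.071. Mt-nd5 gave 2571, 2058 and 2363 FPKM in closed and 2239, 2161 and 2744 FPKM in open eyes. Its differences of 0.20, -0.070 and -0.22 in A, B and C again changed sign after batch A.

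Mt-nd1, which shapes the ubiquinone site, had the widest spread of differences. It stood at 8977, 6985 and 6256 FPKM in closed A, B and C and at 7540, 7145 and 7714 FPKM in open A, B and C. Closed A was the highest and closed C the lowest of the 6 libraries, with open eyes between them. The log2 differences were 0.25 in A, -0.033 in B and -0.30 in C, so the mean of -0.028 averages opposite directions.

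Mt-nd3 was above its open partner in every batch, by little in batches B and C. Its FPKM was 4377, 3003 and 3841 in closed A, B and C and 3366, 2878 and 3607 in open A, B and C. The log2 differences were 0.38, 0.061 and 0.091, and the groups overlapped. The mean log2 fold of 0.18 (SE 0.20 without regard to batch) fell to 0.055 without closed A and to 0.085 without open B. These lower values come from fits that ignored batch, so they also carry differences between batches.

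Mt-nd4l was higher in closed than in open eyes in all 3 batches. It stood at 2975, 3317 and 3839 FPKM in closed A, B and C and at 2331, 2988 and 2680 FPKM in open A, B and C. Only open B reached into the closed range, just above closed A. The log2 differences were 0.35, 0.15 and 0.52, with a mean of 0.34. This mean had an SE of 0.19 without regard to batch and of 0.089 with the batch as a block. It was 0.37 with median scaling and 0.37 with upper-quartile scaling of the libraries. The mean turned to -0.057 with quantile scaling, which forces every library to the same distribution and so gives equal ranks equal values.

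Mt-nd4l and Mt-nd4 are known to overlap and to be carried on a shared messenger, yet their FPKM did not keep a fixed ratio. Mt-nd4l reached 36.8%, 59.4% and 61.5% of Mt-nd4 in closed A, B and C and 35.3%, 51.9% and 40.9% in open A, B and C. The ratio was higher in closed eyes in every batch, by least in A. Batch A was low in both groups, and the closed mean of 52.6% ± 13.7 and open mean of 42.7% ± 8.46 overlapped widely (SD, n = 3 each). The sources used here do not say how reads in the overlap were assigned.

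Mt-nd6, the light-strand member, showed the most even difference between closed and open eyes. Its FPKM was 3065, 3669 and 2469 in closed A, B and C and 2190, 2881 and 1798 in open A, B and C. In both groups B was highest and C lowest, and every closed library lay above its open partner while the groups overlapped across batches. The log2 differences were 0.48, 0.35 and 0.46, with an SD of 0.072, against SDs of 0.18 to 0.28 for the heavy-strand genes. The mean log2 fold of 0.43 had an SE of 0.24 without the batch as a block and 0.075 with it. It was 0.27 without open C and 0.29 without closed B. Among the 397 IDs that averaged 100 FPKM or more, 39 were higher in closed eyes in all 3 batches. None of the 397 had a larger smallest difference than the 0.35 of Mt-nd6, and by mean difference Mt-nd6 took place 3 and Mt-nd4l place 4. This contrast chose the gene, so these places only describe it.

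**Figure D2:**
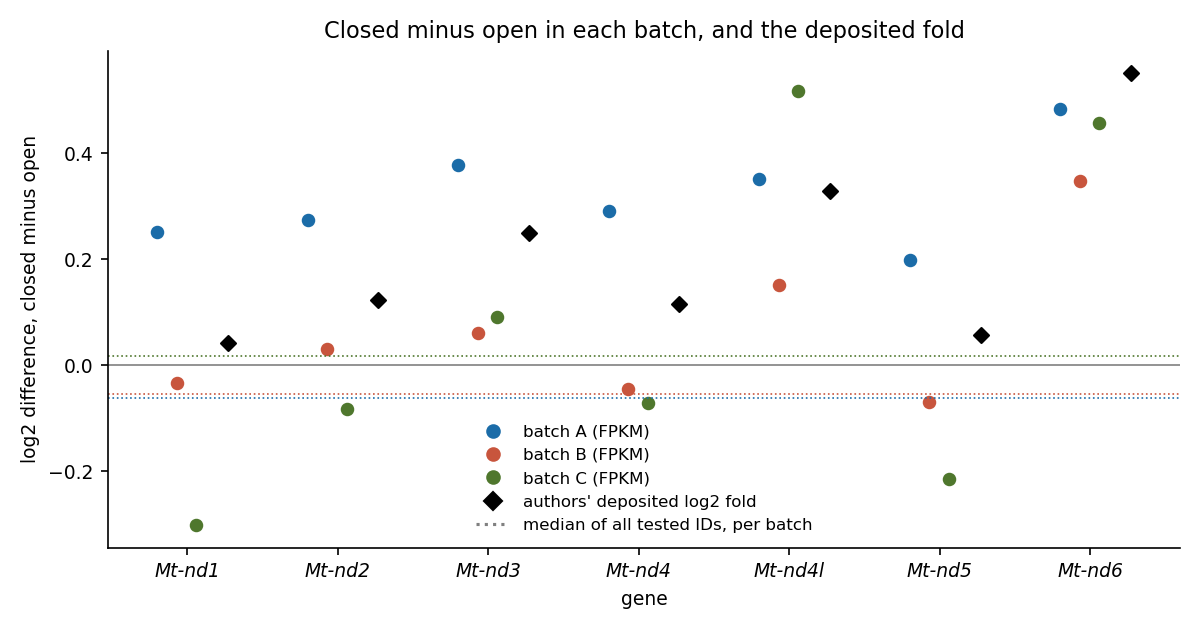
Closed minus open on the log2(FPKM + 0.5) scale (circles, coloured by batch) and the authors' deposited log2 fold turned to closed over open (diamonds), per gene. Dotted lines give the median of the 12351 tested IDs in each batch, and the Mt-nd6 circles lie together between 0.35 and 0.48.

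Within a library, Mt-nd6 was compared with the geometric mean of the 6 heavy-strand genes, a ratio from which library scaling cancels. Selection of polyadenylated RNA need not cancel from it, since Mt-nd6 has hardly any tail, and its part was not tested. Mt-nd6 reached 61.0%, 89.2% and 57.0% of the heavy-strand level in closed A, B and C. In open A, B and C it reached 53.3%, 70.9% and 41.2%. On the log2 scale the closed library was higher by 0.19, 0.33 and 0.47 in A, B and C, and the groups overlapped. The heavy-strand level itself was 5027, 4111 and 4335 FPKM in closed and 4107, 4066 and 4366 FPKM in open A, B and C. The heavy-strand mean thus differed by 0.29 in A, 0.016 in B and -0.010 in C, on the log2(FPKM + 0.5) scale. The mean log2 difference of the ratio was 0.33, and it was 0.13 without closed B, 0.14 without open C and 0.53 without open B. The values with a library left out compare group means of unequal batches, so differences between batches enter them.

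**Figure D3:**
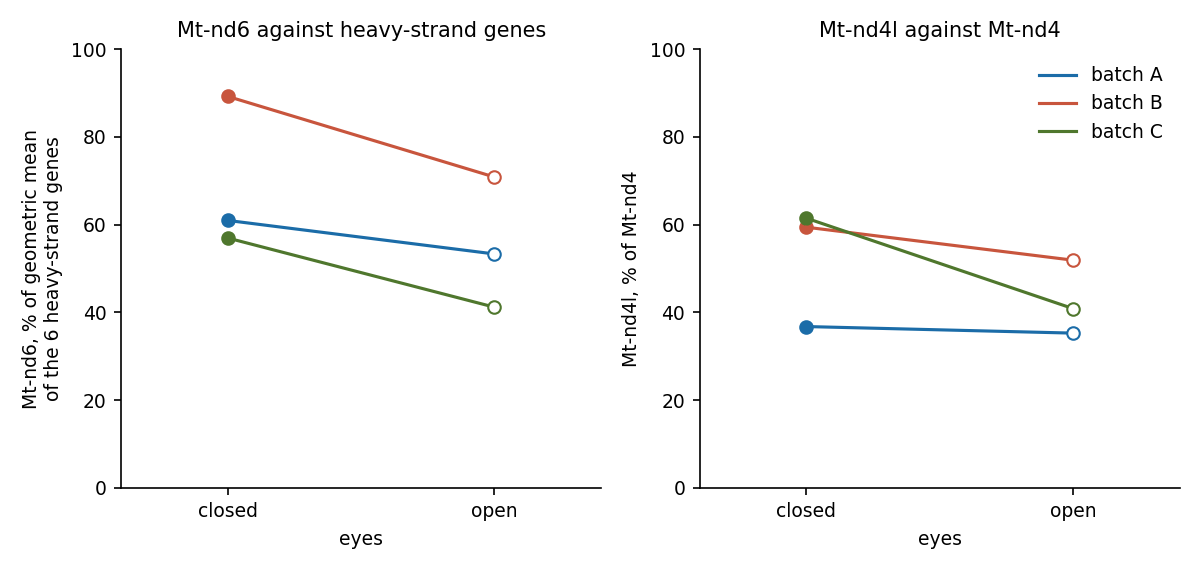
Left, Mt-nd6 as a percentage of the geometric mean of the 6 heavy-strand genes, and right, Mt-nd4l as a percentage of Mt-nd4, in closed and open eyes (y axes from 0), with lines joining the libraries of a batch. Batch B is highest on the left in both groups, and batch A is lowest on the right in both groups.

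As shares of the summed FPKM of the 7 genes, Mt-nd6 held 9.53% ± 2.11 with closed eyes and 7.66% ± 1.89 with open eyes (SD, n = 3 per group). Mt-nd4l held 10.6% ± 2.38 and 8.91% ± 1.11, and Mt-nd3 11.5% ± 1.57 and 11.0% ± 1.15. Mt-nd1 held less in closed than in open eyes, at 22.7% ± 1.77 and 25.0% ± 0.80. Mt-nd5 likewise held 7.21% ± 0.62 and 7.95% ± 0.97. The closed share was the lower one in all 3 batches for Mt-nd1, Mt-nd2, Mt-nd4 and Mt-nd5. For Mt-nd3, Mt-nd4l and Mt-nd6 the closed share was the higher one in all 3 batches. Shares sum to a fixed total, so a higher share of one gene lowers those of the others.

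Across all IDs, limma on log2(FPKM + 0.5) without regard to batch called 0 of the 7 members at an adjusted p under 0.05, where the background of called IDs was 0%. At an unadjusted p under 0.05 there were 67 such IDs of 12351. With the batch as a replicate block, 0 of 7 were called beside a background of 0.0081%, and 780 IDs had an unadjusted p under 0.05. Closed eyes were above open eyes in all 3 batches for Mt-nd3, Mt-nd4l and Mt-nd6, 3 of 7 members, and for 8.4% of the 12351 IDs. When the median of all IDs was subtracted from each batch's difference, the same 3 genes stood above, beside 14% of IDs. Without batch A these 3 genes were again the ones above, beside 19.2% of IDs. None of the 7 had closed and open values that did not overlap, where 3.02% of IDs did. The median log2 fold was 0.074 over the 7 members and -0.034 over all tested IDs. In batch A all 7 members were higher in closed eyes, where 33.1% of IDs were, in B 4 of 7 beside 35.0%, and in C 3 of 7 beside 55.7%. Since the contrast chose the members, nothing is read from these counts.

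In the authors' deposited table, made with DESeq2 per its own column, all 7 members leaned towards closed eyes, where 50% of the 20347 IDs with a p-value did. The deposited log2 folds, turned to closed over open, were 0.041 for Mt-nd1, 0.12 for Mt-nd2, 0.25 for Mt-nd3, 0.11 for Mt-nd4, 0.33 for Mt-nd4l, 0.057 for Mt-nd5 and 0.55 for Mt-nd6. Mt-nd6 and Mt-nd4l were among the 7 IDs that the authors' deposited table called at an adjusted p under 0.05, a background of 0.0344%, or 0.0295% for IDs called higher in closed eyes. Mt-nd3 also had an unadjusted p under 0.05 there, making 3 of 7 members where 2.4% of IDs did. By unadjusted p, the authors' deposited table placed Mt-nd6 first, Mt-nd4l at place 5 and Mt-nd3 at place 25. The 3 members with the highest deposited folds were also the 3 that exceeded their open partner in FPKM in every batch. The same libraries underlie both tables, so the deposited folds are no second measurement. For Mt-nd1 and Mt-nd5 the tables differed in sign, with FPKM folds of -0.028 and -0.029.

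The same 3 genes had few normalized counts behind each unit of FPKM. In the authors' deposited table the mean normalized level was 12449 for Mt-nd6, 12117 for Mt-nd4l and 17390 for Mt-nd3, and it was 83312 for Mt-nd5, 111488 for Mt-nd2, 141405 for Mt-nd1 and 154418 for Mt-nd4. Divided by mean FPKM, this gave 4.65 for Mt-nd6, 4.01 for Mt-nd4l and 4.95 for Mt-nd3. The ratio was 19.0 for Mt-nd1, 19.6 for Mt-nd2, 23.9 for Mt-nd4 and 35.4 for Mt-nd5, against a median of 63.9 over 12344 IDs. Under 1% of IDs had a ratio as low as that of Mt-nd3, Mt-nd4l or Mt-nd6, at 0.794%, 0.656% and 0.753%. FPKM scales by transcript length, and these genes are short. The part of this ratio in the differences between closed and open eyes was not tested.

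**Figure D4:**
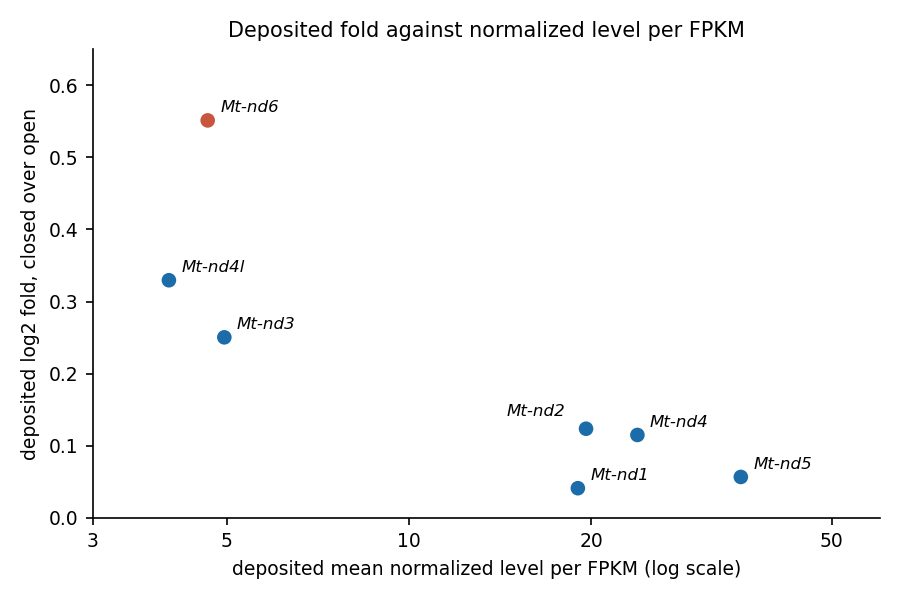
Deposited log2 fold, closed over open (y axis), against the deposited mean normalized level divided by mean FPKM (x axis, log scale) for the 7 genes. Mt-nd3, Mt-nd4l and Mt-nd6 (red) lie at 4.01 to 4.95 with folds of 0.25 to 0.55, and the other 4 genes lie at 19.0 or more with folds of 0.12 or less.

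Levels also varied between batches, and between B and C Mt-nd6 and Mt-nd3 differed in opposite directions. Mt-nd6 was lower in batch C than in batch B by a mean log2 difference of -0.63, and lower in C than in A by -0.30. Both differences had the same sign in closed and in open eyes. The median of all IDs was itself lower in C than in B, by -0.20, and lower in C than in A, by -0.21. After scaling every library to a common median, Mt-nd6 differed by -0.42 between C and B and by -0.092 between C and A. Mt-nd3 was higher in C than in B by 0.34, and by 0.54 after median scaling. Batch B had the lowest Mt-nd3 and the highest Mt-nd6 in closed and in open eyes alike.

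Limma's F test between batches, with eye condition as a covariate, called Mt-nd6 and Mt-nd3, 2 of 7 members, where 49.7% of IDs were called. After median scaling it called Mt-nd3, Mt-nd4l and Mt-nd6, 3 of 7 beside 29.6%. Each batch held only 2 libraries, and the error in this test is the spread of the closed-minus-open differences across batches. That contrast chose the genes, and its spread was the smallest of the 7 for Mt-nd6, so nothing is read from these calls. Without the eye covariate the SE of the batch differences of Mt-nd6 rose from 0.091 to 0.24 and its adjusted p was 0.154.

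The heavy-strand genes did not share a single pattern over the 6 libraries, and their likeness to Mt-nd6 ranged from 0.70 to -0.64. Likeness was taken as the Pearson correlation of log2(FPKM + 0.5) over the 6 libraries, which share batches and scaling, and it is a description only. With the mean of the heavy-strand genes, Mt-nd6 reached 0.061, whereas Mt-nd4 reached 0.90, Mt-nd3 0.90, Mt-nd1 0.69, Mt-nd5 0.68, Mt-nd2 0.41 and Mt-nd4l 0.094. Each heavy-strand gene is part of that mean, which raises its value. Against Mt-nd6 itself, Mt-nd2 reached 0.70, Mt-nd4l 0.48, Mt-nd1 -0.010, Mt-nd4 -0.19, Mt-nd3 -0.23 and Mt-nd5 -0.64. By likeness to Mt-nd6, Mt-nd2 took place 1440 and Mt-nd4l place 4537 of 12351 IDs. The other IDs most like Mt-nd6 were ENSRNOG00000008744 at 0.98, with a mean of 29.8 FPKM, and ENSRNOG00000023381 at 0.98, with 1.49 FPKM. Those most like the heavy-strand mean were ENSRNOG00000007937 at 0.97, with 13.6 FPKM, and ENSRNOG00000011294 at 0.96, with 38.3 FPKM. With 12351 IDs and 6 libraries, such values arise for many IDs: 136 others exceeded 0.9 with Mt-nd6 and 30 with the heavy-strand mean.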

How the data were processed

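The authors deposited FPKM per Ensembl ID for 6 libraries, per the labels, and 1 table of their own comparison with DESeq2, per the file headers. For each ID that deposited table gives a signal value, taken from its size as a mean normalized count, with a log2 fold, a p-value and an adjusted p-value. Its log2 fold ran against the FPKM difference of closed from open (rank correlation -0.75 across 12344 IDs) and so was read as open over closed and turned here. Tools named in the submitters' processing notes are DESeq2 1.4.1, Cufflinks 2.1.1, featureCounts 1.4.4 and STAR, on the build rn5. The sources used here give neither annotation nor filters.

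The fits used limma 3.58.1 in R 4.3.3 on log2(FPKM + 0.5) for the 12351 IDs that averaged 1 FPKM or more across the 6 libraries. Variance moderation used trend and robust settings, tests were two-sided, and Benjamini-Hochberg adjustment ran over all IDs at 0.05. The fit was tested on simulated data, whose changes between closed and open eyes were larger than the main FPKM folds of the 7 members. Recovery of changes as small as those of the members was not tested. Batch letters are shared labels and pair the libraries: deviations from group means correlated at 0.36 to 0.52 within batches. Named genes are the 7 members and the 2 IDs most like each pattern. The members and lists were chosen with earlier results of these data known. Lists of other genes could not be matched to IDs, since the reference table of 47357 rows holds 0 Ensembl IDs, and were not used. Alternatives were other pseudocounts, filters, scalings, variance moderation, the block and each library left out. Counts per batch with centring or without a batch were added after seeing the data.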

Additional observations from a re-analysis of the deposited data

How the results depend on the processing

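With the replicate block, the paired fit called 1 ID of all IDs where the unpaired fit called 0, and with the block and median scaling it called 0. That ID was no member, and the block changed no other call. Without single libraries 0 to 3 IDs were called between closed and open eyes. Over 16 settings the folds of Mt-nd3 and Mt-nd6 were never reversed. With quantile scaling, which gives equal ranks equal values, Mt-nd3 and Mt-nd2 came to 0, Mt-nd6 to 0.31, Mt-nd4 to -0.028 and Mt-nd4l to -0.057. Median scaling, alone or with the replicate block, turned Mt-nd1 to 0.0064 and Mt-nd5 to 0.0053. The fits without single libraries ignored batch, so their folds also carry differences between batches. Without single libraries the log2 folds ranged from -0.17 to 0.086 for Mt-nd1, -0.023 to 0.20 for Mt-nd2, -0.092 to 0.18 for Mt-nd4, -0.10 to 0.078 for Mt-nd5, 0.055 to 0.33 for Mt-nd3, 0.24 to 0.43 for Mt-nd4l and 0.27 to 0.61 for Mt-nd6.

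Between batches, 6138 IDs were called as deposited, 3650 with median, 3730 with upper-quartile and 3462 with quantile scaling, and 1658 to 4875 without single libraries, where fewer samples were fitted. The lowest of these was without open C. Members called between batches were 2 as deposited (49.7% of IDs), 4 with upper-quartile scaling (30.2%), 1 without the filter on low values (21.8%), 1 with plain moderation (39.2%), 1 without the eye covariate (48.7%) and 1 to 3 without single libraries (13.4% to 39.5%). For the scalings, filter, moderation and covariate the cause was not tested. The members above their open partner in every batch numbered 3 as deposited (8.4% of IDs) and with centring (14%). They numbered 3 without batch A (19.2%) or B (17.4%), and 4 without batch C (15.4%). The deposited calls among members were 2 at an adjusted p under 0.05 and under 0.1. Depth per library is unknown, so counting error could not be given.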
